A study of Rattus norvegicus with 30 samples.

Results

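The genes described are those of major histocompatibility complex (MHC) class II antigen presentation, 8 genes chosen by name: RT1-Da, RT1-Db1, RT1-Ba, RT1-Bb, Cd74, RT1-DMa, RT1-DMb and Ciita. Every probe set annotated with 1 of these symbols was taken, which gave 14 probe sets of 31042 on the array, for 8 of 14217 named genes. All 14 passed the filter on dim values, beside 24292 probe sets in all. They were measured in hearts of male Crl:WI(Han) rats, an outbred Wistar stock, on single-colour Affymetrix RAT230_2 arrays. Isoproterenol hydrochloride, a catecholamine that activates beta-adrenergic receptors, was given once at a labelled dose of 0.5, with a unit that leaves the dose per body weight unsettled. Hearts taken 1, 3, 24 and 72 h after isoproterenol numbered 5, 4, 4 and 5, and those after vehicle numbered 3 at each time. The labels number the arrays of each group as biological replicates. They give neither the age of the rats, nor their RT1 genotype, nor a further statement that each array had an animal of its own. If arrays shared animals, the p-values reflect the spread of these arrays, part of which may be technical.

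Class II molecules carry peptides from the endosomal pathway to the cell surface, where CD4 T cells read them. RT1-Da and RT1-Db1 encode the alpha and beta chains of RT1-D, the rat counterpart of human HLA-DR, and RT1-Ba and RT1-Bb those of RT1-B, the counterpart of HLA-DQ. Cd74 encodes the invariant chain that fills the groove of a new class II molecule, RT1-DMa and RT1-DMb encode the chains of the DM molecule that exchanges its last fragment for peptide, and Ciita encodes the coactivator that class II promoters need. In heart tissue these genes are known mainly from macrophages, dendritic cells and B cells.

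Class II promoters are known for an X box, bound by the RFX complex, and a Y box, bound by NF-Y, on which the Ciita protein assembles. Promoters from RefSeq on the GRCr8 build were found for 6 of the 8 genes, and not for RT1-DMb and Ciita. The letters GNNACNGAT for the core of the X box and TGATTGG for the Y box were searched on both strands, and were chosen with these promoters in view. All 8 genes rose at 72 h, as described below, so the rise does not set apart the genes shown. Stretches are shown for the 5 genes whose promoter held the Y box letters on the strand of the gene. Each runs 5′ to 3′ on the strand of the gene, with the matched letters in capitals, at chr20:4515314-4515375 (plus strand) for RT1-Da, chr20:4560233-4560294 (minus strand) for RT1-Db1, chr20:4604170-4604231 (minus strand) for RT1-Bb, chr20:4712390-4712451 (minus strand) for RT1-DMa and chr20:4576962-4577023 (plus strand) for RT1-Ba.
RT1-Da: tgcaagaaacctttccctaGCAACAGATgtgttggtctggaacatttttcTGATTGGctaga
RT1-Db1: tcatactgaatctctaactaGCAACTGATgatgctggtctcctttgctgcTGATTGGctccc
RT1-Bb: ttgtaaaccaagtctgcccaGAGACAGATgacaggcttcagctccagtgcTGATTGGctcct
RT1-DMa: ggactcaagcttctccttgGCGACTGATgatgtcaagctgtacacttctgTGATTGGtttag
RT1-Ba: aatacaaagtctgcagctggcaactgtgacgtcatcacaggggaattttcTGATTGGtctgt
The first base of the Y box lay 30 or 31 bases after the first base of the X box core in all 4 promoters that held both. On the strand of the gene, RT1-Ba held the Y box letters with no exact match to the X box core letters within 60 bases before them. The Cd74 window held neither run of letters on that strand. Only exact letters were searched, so a missing match does not show that the box is absent. Of 33469 promoter windows of 300 bases, 2620 (7.83%) held the X box core letters and 2364 (7.06%) the Y box letters. The X box core followed by the Y box on 1 strand within 60 bases was found in 45 windows (0.134%), among them 4 of those shown and those of RT1-DOb and RT1-Db2, which are class II genes, and of RT1-A2, which is a class I gene. No further gene with an RT1 symbol was among the 45.

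Values are given on the scale log2(intensity + 16) after quantile normalization, on which a change of dim probe sets is understated, and a change is isoproterenol minus vehicle at the same time with its standard error. Adjusted p-values come from limma's moderated test over all 24292 probe sets, with a threshold of 0.05, and "rose" is used only of probe sets past it. Before normalization, median intensity per array lay between 21.2 and 70.4. At 24 h it was 35.2 to 70.4 in isoproterenol arrays and 29.7 to 49.3 in vehicle arrays. The range at 72 h was 22.5 to 55.6 in isoproterenol arrays and 23.5 to 41.8 in vehicle arrays. The array numbers in the labels run from 33 to 62 for isoproterenol and from 4 to 21 for vehicle. An effect tied to array number and that of treatment therefore cannot be told apart. The beta-actin 3′ minus 5′ difference, a measure of RNA integrity, was 0.89 to 1.35 in isoproterenol arrays and 1.46 to 1.92 in vehicle arrays at 24 h. The range at 72 h was 1.12 to 1.63 in isoproterenol arrays and 0.97 to 1.99 in vehicle arrays. The part of array brightness, array number and RNA integrity in the results was not tested.

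Hearts that received isoproterenol stood apart from others of their own group in 2 cases. Replicate 1 at 72 h was the lowest of its 5 hearts in 9 of the 14 class II probe sets and in 81.2% of the 2275 probe sets that were higher at 72 h. Replicate 3 at 24 h was the lowest of its 4 hearts in 9 of the 14 and in 87.9% of the 1781 probe sets higher at 24 h. Both were kept, and the counts of the gene lists without them are given after the lists. The hearts carried heart muscle transcripts in every group: the summed normalized intensity of 9 cardiomyocyte markers at 24 h was 64100 to 75500 in isoproterenol hearts and 74400 to 77300 in vehicle hearts, with 1 of the 9 lower by limma.

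No class II probe set passed the test 1 or 3 h after isoproterenol, and most genes were higher at 24 h or 72 h. At 1 h, 0 of 14 probe sets were higher and 0 lower by limma, where 1.83% of all probe sets were higher, and 1 of the 14 had an unadjusted p under 0.05. At 3 h the counts were again 0 and 0, against 6.11% of all probe sets higher, with 1 unadjusted p under 0.05. At 24 h, 5 probe sets for 5 of the 8 genes rose, against 7.33% of all probe sets, and 0 fell. At 72 h, 9 probe sets rose, against 9.37% of all, and they covered all 8 genes, with 0 lower. Of all 24292 probe sets, 643, 2766, 3165 and 4354 passed at 1, 3, 24 and 72 h. Of those, 445, 1484, 1781 and 2275 were higher and the rest lower. With 14 probe sets, a count of 0 lower says little beside such shares. The median change of the 14 probe sets was -0.12, -0.26, 0.69 and 1.73 at 1, 3, 24 and 72 h, while the median of all probe sets lay between -0.05 and -0.02. In bulk tissue, fewer or more cells of a type and less or more RNA per cell cannot be told apart.

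**Figure D1:**
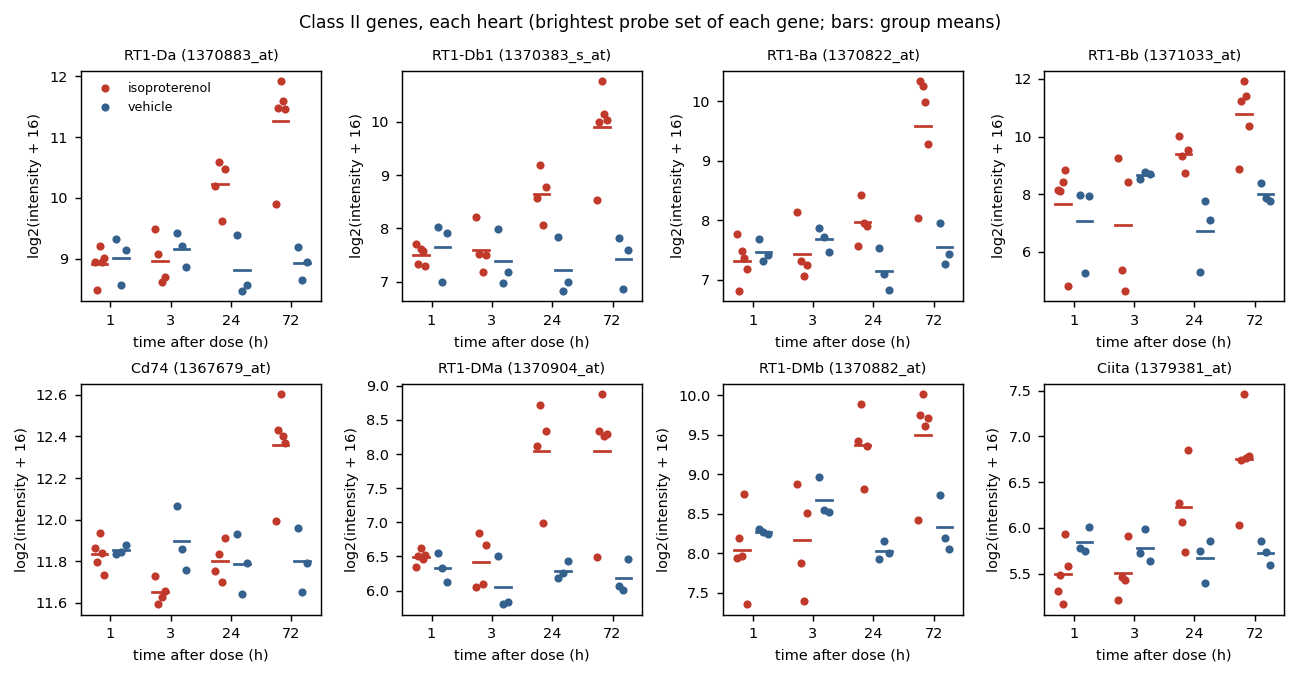
Level of each of the 8 genes in every heart, on the log2(intensity + 16) scale (vertical axis, a separate range per gene), by hours after the dose, for the brightest probe set of each gene. Points are single hearts, isoproterenol in red and vehicle in blue, and bars are group means. At 24 h all isoproterenol hearts lie above all vehicle hearts for 6 genes, all but Cd74 and Ciita. Of all probe sets, 10.6% separate in this way. Other probe sets of RT1-Db1, RT1-Ba and RT1-Bb, not drawn here, overlap at 24 h. In most panels 1 heart at 72 h lies low.

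RT1-D, the counterpart of HLA-DR, rose at 24 and at 72 h. RT1-Da (1370883_at), its alpha chain, stood at 10.20, 10.58, 9.62 and 10.48 in the 4 isoproterenol hearts at 24 h, against 9.40, 8.48 and 8.57 in the vehicle hearts. The groups did not overlap, and the change was 1.41 ± 0.32 (2.65-fold, limma adjusted p = 0.00323). At 72 h it was 9.90, 11.47, 11.92, 11.58 and 11.47 in isoproterenol hearts and 9.19, 8.65 and 8.95 in vehicle hearts. Again every isoproterenol heart lay above every vehicle heart, 4 of them closely grouped and 1 well below the rest, and the change was 2.34 ± 0.30 (5.07-fold, limma adjusted p = 6.83e-06). The means of the other 6 groups, vehicle at all times and isoproterenol at 1 and 3 h, lay between 8.82 and 9.17. The spread between hearts within these groups was 0.27 to 0.51 (SD), and neither the changes at 1 and 3 h nor the differences among vehicle groups passed the test.

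RT1-Db1, the beta chain of the same molecule, had 2 probe sets that behaved differently. The first, 1370383_s_at, read 8.56, 9.19, 8.05 and 8.78 in isoproterenol hearts at 24 h and 7.84, 6.83 and 6.99 in vehicle hearts. It rose by 1.43 ± 0.36 (2.69-fold, limma adjusted p = 0.00805), with no overlap, although it did not pass without vehicle replicate 2 (adjusted p = 0.0577). At 72 h it read 8.54, 9.99, 10.76, 10.15 and 10.03 in isoproterenol hearts, against 7.81, 6.86 and 7.60 in vehicle hearts, and rose by 2.47 ± 0.35 (5.55-fold, adjusted p = 1.39e-05). The same heart was low as for RT1-Da. The second, 1370382_at, was under the filter's intensity in 10 of 30 arrays and gave 4.51, 9.15, 9.08, 8.93 and 6.51 in isoproterenol hearts at 72 h, with 6.78, 6.51 and 4.24 in vehicle hearts. Its groups overlapped, and its change of 1.79 ± 0.78 did not pass (adjusted p = 0.112). Without isoproterenol replicate 1 at 72 h it was 2.57 (adjusted p = 0.00429). The ending _s_at marks probes that may match related transcripts, so a share of RT1-Db2 or other beta chains in the first probe set cannot be told apart.

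RT1-B, the counterpart of HLA-DQ, was read by 4 probe sets for its alpha chain and 2 for its beta chain. RT1-Ba (1370822_at), the alpha chain, read 8.04, 10.34, 10.26, 9.98 and 9.28 in isoproterenol hearts at 72 h, against 7.95, 7.27 and 7.43 in vehicle hearts. The lowest isoproterenol heart was only just above the highest vehicle heart, and the gene rose by 2.03 ± 0.33 (4.07-fold, limma adjusted p = 8.7e-05). At 24 h the values were 7.58, 8.43, 7.96 and 7.91 in isoproterenol hearts and 7.53, 7.09 and 6.84 in vehicle hearts, a change of 0.81 ± 0.35 that did not pass (adjusted p = 0.128), although the groups did not overlap. It passed when isoproterenol replicate 1 at 72 h, which enters the shared estimate of spread, was left out (adjusted p = 0.0294). A second probe set of the gene, 1377334_at, rose by 2.36 ± 0.62 at 72 h (5.14-fold, adjusted p = 0.00721), with 9.30, 9.12, 9.11, 9.76 and 10.84 in isoproterenol hearts and 7.35, 6.57 and 7.87 in vehicle hearts. In that probe set the heart that lay low elsewhere was in the middle of its group. The other probe sets of RT1-Ba, 1392334_at and 1381593_x_at, were under the filter's intensity in 10 and 13 arrays. Their changes lay between -0.28 and 0.59 at the 4 times with adjusted p of 0.597 or more.

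RT1-Bb, the beta chain of RT1-B, was read by 2 probe sets with very wide spread. The first, 1371033_at, gave 10.02, 9.34, 8.72 and 9.54 in isoproterenol hearts at 24 h, against 5.32, 7.76 and 7.11 in vehicle hearts. It gave 8.88, 11.25, 11.92, 11.41 and 10.37 in isoproterenol hearts at 72 h, against 8.38, 7.86 and 7.78 in vehicle hearts. The groups did not overlap at either time. The probe set rose by 2.68 ± 0.88 at 24 h (6.4-fold, limma adjusted p = 0.0411) and by 2.76 ± 0.85 at 72 h (6.79-fold, adjusted p = 0.0209). The call at 24 h was lost on leaving out vehicle replicate 1 (change 1.97, adjusted p = 0.226) or 3, or isoproterenol replicate 1, 2 or 4. The call at 72 h was lost on leaving out any 1 vehicle array of that time or isoproterenol replicate 3 (adjusted p up to 0.0851). The second probe set, 1371065_at, had changes of 0.43 ± 0.94 at 24 h and 1.67 ± 0.90 at 72 h that did not pass (adjusted p = 0.834 and 0.212).

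Cd74, the invariant chain, had the smallest change among the 9 probe sets that passed at 72 h. At 72 h it read 11.99, 12.43, 12.60, 12.40 and 12.37 in isoproterenol hearts, against 11.96, 11.65 and 11.79 in vehicle hearts. The lowest isoproterenol heart was just above the highest vehicle heart, and the rise was 0.56 ± 0.11 (1.47-fold, limma adjusted p = 0.000518). With trimmed mean scaling in place of quantile normalization the change was 0.34 and did not pass (adjusted p = 0.0882). At 24 h its mean was 11.80 ± 0.093 in isoproterenol hearts and 11.79 ± 0.144 in vehicle hearts (SD, n = 4 and 3), a change of 0.01 ± 0.11 (adjusted p = 0.968). At 3 h every isoproterenol heart (11.59 to 11.73) lay below every vehicle heart (11.76 to 12.07), but the change of -0.24 ± 0.11 did not pass (adjusted p = 0.172).

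The DM genes, which encode the peptide exchange factor, rose at both 24 and 72 h. RT1-DMa (1370904_at) read 8.12, 8.72, 6.997 and 8.33 in isoproterenol hearts at 24 h and 6.19, 6.25 and 6.43 in vehicle hearts. It rose by 1.75 ± 0.36 (3.37-fold, limma adjusted p = 0.00136), with no overlap. At 72 h it read 6.49, 8.33, 8.88, 8.27 and 8.29 in isoproterenol hearts, against 6.07, 6.01 and 6.46 in vehicle hearts, and rose by 1.87 ± 0.34 (3.66-fold, adjusted p = 0.000288). Replicate 1 was just above the highest vehicle heart and the other 4 were far above it. RT1-DMb (1370882_at) read 9.42, 9.89, 8.81 and 9.36 in isoproterenol hearts at 24 h and 7.93, 8.16 and 8.01 in vehicle hearts, and rose by 1.34 ± 0.32 (2.53-fold, adjusted p = 0.00476). At 72 h it read 8.42, 9.76, 10.01, 9.61 and 9.71 in isoproterenol hearts, against 8.73, 8.20 and 8.06 in vehicle hearts. The groups overlapped through replicate 1, and the rise was 1.17 ± 0.30 (2.25-fold, adjusted p = 0.00685), which did not pass without vehicle replicate 3 (adjusted p = 0.0559).

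Ciita, the coactivator, rose at 72 h. Its probe set 1379381_at was under the filter's intensity in 5 arrays and read 6.03, 6.75, 7.46, 6.76 and 6.78 in isoproterenol hearts at 72 h, against 5.86, 5.74 and 5.59 in vehicle hearts. The groups did not overlap, and it rose by 1.02 ± 0.24 (2.04-fold, limma adjusted p = 0.0036). At 24 h it read 6.28, 6.07, 5.73 and 6.85 in isoproterenol hearts and 5.75, 5.40 and 5.86 in vehicle hearts, a change of 0.57 ± 0.26 that did not pass (adjusted p = 0.155). Without the 2 hearts that stood apart, that change was 0.73 (adjusted p = 0.0277). The other probe set, 1369214_a_at, stayed between group means of 5.60 and 6.09, with changes of 0.06 ± 0.27 at 24 h and -0.07 ± 0.26 at 72 h (adjusted p = 0.929 and 0.898).

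**Figure D2:**
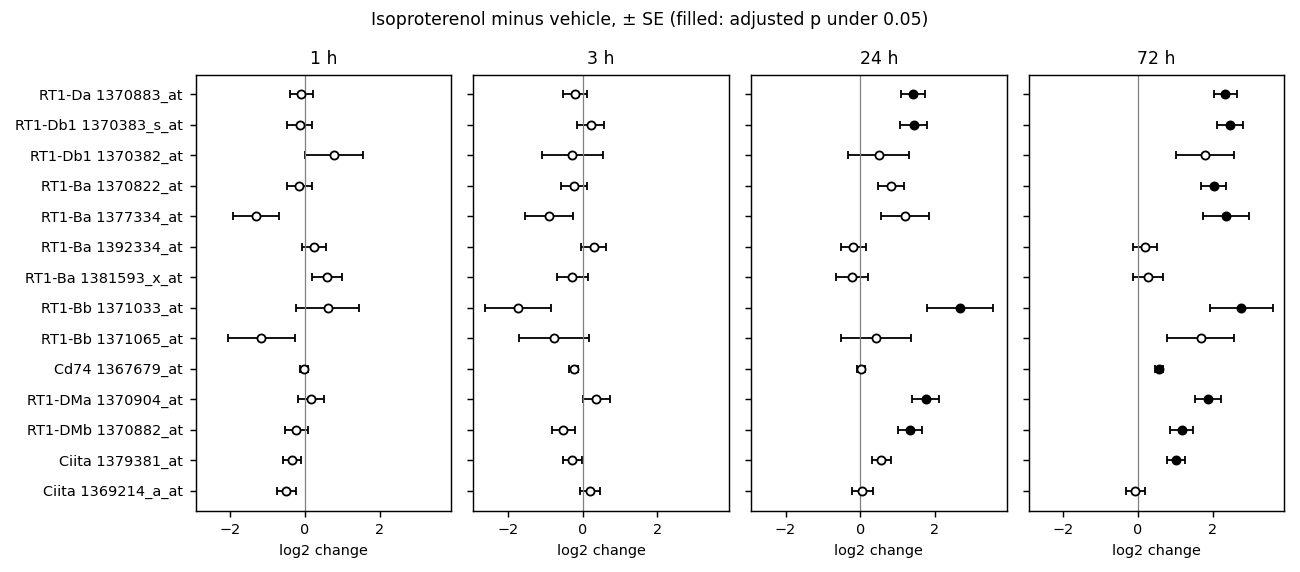
Change of each of the 14 probe sets (isoproterenol minus vehicle, log2 scale, horizontal axis) at 1, 3, 24 and 72 h, with bars of 1 standard error and filled points where the limma adjusted p was under 0.05. Filled points number 0, 0, 5 and 9, and the widest bars belong to RT1-Bb and to RT1-Db1 1370382_at.

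Whether the response differed between times was tested directly. From 3 to 24 h the effect of isoproterenol became larger in 3 of the 14 probe sets, against 3.59% of all probe sets: RT1-Da by 1.60 ± 0.45 (limma adjusted p = 0.0276), RT1-DMb by 1.85 ± 0.45 (adjusted p = 0.0111) and RT1-Bb 1371033_at by 4.41 ± 1.25 (adjusted p = 0.0294). In the last, 2 of 4 isoproterenol hearts at 3 h were low. From 24 to 72 h, 0 of 14 passed by limma, against 1.32% of all, although 4 had an unadjusted p under 0.05. The nearest was Cd74, with a difference of 0.55 ± 0.16 (adjusted p = 0.0595), and RT1-Da had 0.93 ± 0.44 (adjusted p = 0.332). Without isoproterenol replicate 1 at 72 h, 3 of the 14 passed. RT1-DMa and RT1-DMb had differences of 0.12 (95% interval -0.89 to 1.13) and -0.17 (-1.06 to 0.73) between these times. From 1 to 72 h the effect became larger in 8 of 14 probe sets for 7 of the 8 genes, against 5.2% of all. From 3 h against 1 h the count was 0, with 0 unadjusted p under 0.05, against 0.391% of all. The test of any isoproterenol effect over the 4 times passed for 9 of the 14, against 32% of all probe sets. Among the 4 vehicle groups, 0 of 14 differed by limma's F test, against 0.0988% of all. The 1 with an unadjusted p under 0.05 was RT1-Ba 1392334_at (0.00882).

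All isoproterenol hearts lay above all vehicle hearts in 6 of the 14 probe sets at 24 h, against 10.6% of all probe sets, and in 8 of 14 at 72 h, against 8.62%. The spread between hearts of 1 group was unusually wide in most class II probe sets. The pooled SD of RT1-Da was 0.47, of RT1-Ba 1370822_at 0.52, of RT1-DMa 0.52 and of RT1-Db1 1370383_s_at 0.54, against a median of 0.32 over all probe sets. These 4 stood at percentiles 90.3, 95, 95.7 and 96.5 of all probe sets. Cd74 was the opposite, with a pooled SD of 0.13 at percentile 1.68. At 72 h much of the spread came from replicate 1: the SD of RT1-Da over the isoproterenol hearts was 0.79 with that heart and 0.21 without it, and that of RT1-DMa was 0.91 and 0.29. The mean of RT1-Da over the other 4 hearts was 11.61.

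**Figure D3:**
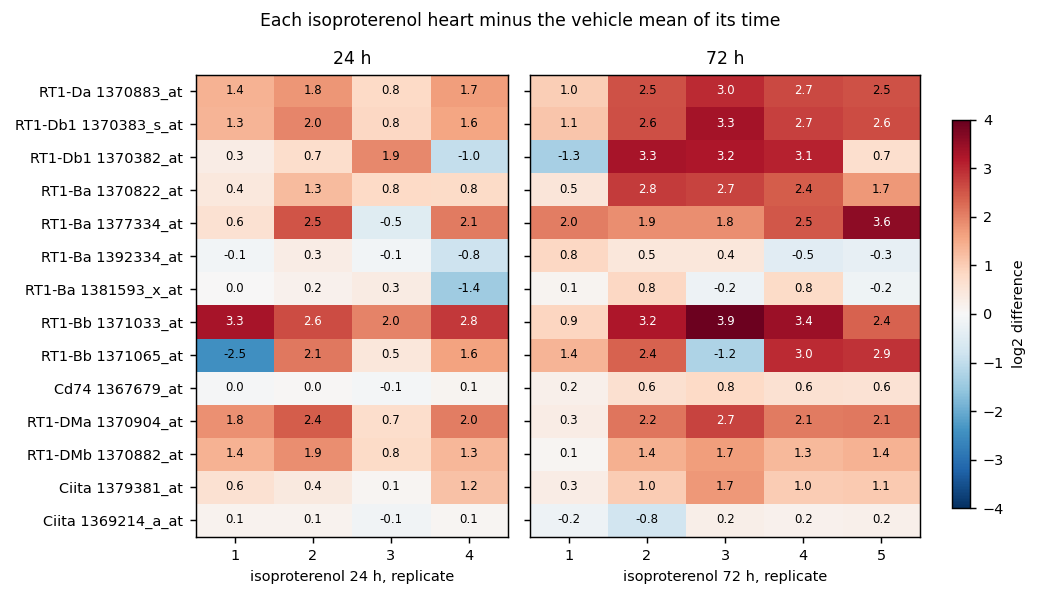
Each isoproterenol heart at 24 h (left, 4 columns) and 72 h (right, 5 columns) minus the mean of the vehicle hearts of its time, for the 14 probe sets (rows), on the log2 scale (red higher, blue lower, values printed). The column of replicate 1 at 72 h is pale for RT1-Da, RT1-DMa and RT1-DMb, and the rows of RT1-Bb 1371065_at and RT1-Db1 1370382_at mix both colours.

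RT1-Bb showed a separate pattern, in which its 2 probe sets were low in different hearts. The values of 1371033_at had a gap of 1.72 between 5 hearts at or below 5.39 and 25 at or above 7.11. Those of 1371065_at had a gap of 0.80 between 7 hearts at or below 5.24 and 23 at or above 6.05. No heart was low in both, and 18 were low in neither. Deviations from the group means correlated at r = -0.52 between the probe sets over 30 arrays, although both are annotated to 1 gene. RT1-Ba 1377334_at was low in 2 hearts, isoproterenol replicates 1 and 4 at 3 h, at 4.23 and 4.75, and both were among the 7 that were low in RT1-Bb 1371065_at. Its deviations correlated with that probe set at r = 0.68. Low hearts occurred in isoproterenol and vehicle groups. RT1-B chains are known to be polymorphic between rats, and the part of genotype in these values was not tested.

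**Figure D4:**
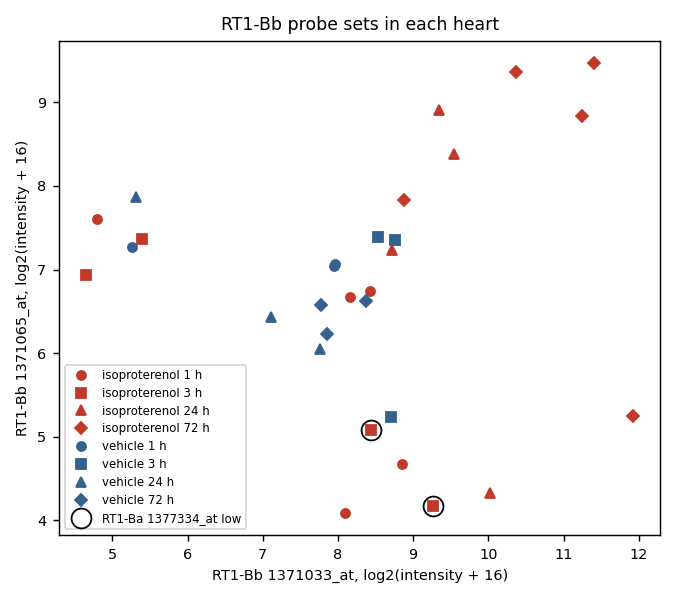
The RT1-Bb probe sets 1371033_at (horizontal) and 1371065_at (vertical) in each of the 30 hearts, both on the log2(intensity + 16) scale, isoproterenol in red and vehicle in blue with a symbol for each time. Hearts at the left (5) and at the bottom (7) are different hearts, and the circled 2 are those low in RT1-Ba 1377334_at.

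Several class II genes deviated together within groups. Between RT1-Da, RT1-Db1 1370383_s_at, RT1-Ba 1370822_at and Cd74, deviations from group means correlated at r of 0.773 to 0.923 in the 6 pairs over 30 arrays, which share hearts and array brightness. Of these, the RT1-Da and RT1-Db1 windows shown above hold exact matches to both the X box core and the Y box letters. In the RT1-Ba stretch only the Y box letters matched, and in the Cd74 window neither did, which does not show that the boxes are absent. RT1-Da correlated at 0.438 with RT1-Db1 1370382_at, and at 0.372 and 0.148 with RT1-Bb 1371033_at and 1371065_at. With RT1-Ba 1377334_at, 1392334_at and 1381593_x_at it correlated at 0.227, -0.001 and -0.235. RT1-Da and RT1-DMa correlated at 0.71, but at 0.39 without the 2 hearts farthest from their group in RT1-Da. Those 2 are isoproterenol replicate 1 at 72 h and replicate 3 at 24 h. RT1-Da and Ciita 1379381_at correlated at 0.49, and at 0.17 without them. Without the same 2 hearts, RT1-Da correlated at 0.877 with RT1-Db1 1370383_s_at, 0.766 with RT1-Ba 1370822_at and 0.727 with Cd74. Among 12443 other genes, likeness was measured to the mean of all 10 probe sets of RT1-Da, RT1-Ba, RT1-Bb, RT1-Db1 and Cd74, the discordant and dim ones included. The genes most alike in deviations were Npc2, a lysosomal cholesterol carrier (r = 0.815), Carhsp1 (0.806), Clec7a, a receptor for fungal glucans (0.771), Sh3bgrl3 (0.766) and Slpi, a protease inhibitor (0.763). Vsir, Cyba, Aebp1, Foxp4 and Smim14 followed, at 0.741 to 0.758. Without the 2 hearts farthest in that mean, r for these 10 genes was 0.533 to 0.745. Levels across all 30 arrays also carry the differences between treatments and times. By level the nearest were Apoe, a lipid carrier (0.945), Npc2 (0.936) and Fuca1, a lysosomal fucosidase (0.934). Next came Fbln2, a matrix protein (0.928), and Unc93b1, which escorts Toll-like receptors to endosomes (0.925). Grn, Olfml3, Pcolce, Tmed3 and Ctsa followed, at 0.917 to 0.924.

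Most measured genes of antigen processing for class II passed the test at 24 and 72 h. Of all probe sets, 1.83%, 6.11%, 7.33% and 9.37% were higher at 1, 3, 24 and 72 h. These shares belong beside the counts of this and each later list. Of 14 measured genes of endosomal processing, 0 passed at 1 h, 0 were higher and 1 lower at 3 h, 9 rose and 1 fell at 24 h, and 10 rose and 0 fell at 72 h. Their median change was 0.60 at 24 h and 0.86 at 72 h. Ctss, the cathepsin that cuts the invariant chain, rose by 1.47 ± 0.34 at 24 h (limma adjusted p = 0.00415) and 2.50 ± 0.33 at 72 h (adjusted p = 7.34e-06). Ifi30, the thiol reductase of endosomes, rose by 1.41 ± 0.27 and 1.13 ± 0.26. Ctsz, another cathepsin, rose by 2.17 ± 0.40 and 1.92 ± 0.38, and Marchf1, a ubiquitin ligase that removes class II from the surface, by 0.87 ± 0.28 and 1.64 ± 0.27. Lamp2, a lysosomal membrane protein, fell by 0.48 at 24 h (adjusted p = 0.00975).

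Of 10 measured factors that act on class II or Ciita promoters, 0 passed at 1 h, 1 was higher and 2 lower at 3 h, 1 rose at 24 h and 3 rose at 72 h, with 0 lower at the last times. At 3 h Nfyb, a subunit of NF-Y, was higher by 0.70 ± 0.18, and Creb1, a factor that binds near the X box, and Irf2, an interferon regulatory factor, were lower (changes of -0.98 ± 0.33 and -0.66 ± 0.21, limma adjusted p = 0.0495 and 0.0398). Irf8, a factor of myeloid cells, rose by 1.13 ± 0.32 at 24 h (limma adjusted p = 0.0176) and 1.52 ± 0.31 at 72 h. Irf1, which interferon gamma induces, changed by -0.13 ± 0.21 at 24 h (adjusted p = 0.771) and rose by 1.00 ± 0.20 at 72 h (adjusted p = 0.00079). The difference between these times was 1.13 (adjusted p = 0.0354). Nfya, a subunit of NF-Y, rose by 0.61 ± 0.19 at 72 h. Rfx5, a subunit of the RFX complex, did not pass, with -0.12 ± 0.22 at 24 h and 0.46 ± 0.21 at 72 h.

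A list of the interferon gamma pathway held receptors, kinases and induced genes. Of 14 measured, 1 was higher at 3 h (Jak2, a kinase of the receptor), 0 were higher and 1 lower (Jak1, another such kinase) at 24 h, and 7 rose and 0 fell at 72 h, with median changes of -0.06 and 0.55. The effect at 72 h was larger than at 24 h in 5 of the 14 by the test of the difference. Cxcl10, a chemokine for T cells, rose by 2.91 ± 0.53 at 72 h (limma adjusted p = 0.000297), Gbp2, a guanylate-binding protein, by 1.91 ± 0.28 (adjusted p = 1.96e-05) and Irgm, an immunity-related GTPase, by 1.74 ± 0.24 (adjusted p = 1.39e-05). Ifngr1, a receptor chain, was also among the 7, while the chemokines Cxcl9 and Cxcl11 did not pass, with 0.05 ± 0.21 and -0.27 ± 0.28. Ifng itself was below the filter. Over all 30 arrays the list's mean deviation correlated with that of RT1-Da at r = 0.326, and at -0.005 without the 2 farthest hearts. Of 19 measured class I presentation genes, 1 was higher and 2 lower at 3 h, 2 rose at 24 h, and 9 rose and 1 fell at 72 h. B2m, the light chain of class I, changed by 0.09 ± 0.11 at 24 h (adjusted p = 0.655) and rose by 0.50 ± 0.10 at 72 h (adjusted p = 0.00103). Psmb8 and Psmb9, subunits of the immunoproteasome, rose by 1.73 ± 0.35 and 1.66 ± 0.22 at 72 h. Of 7 costimulation genes, 0 were higher and 2 lower at 3 h, 2 rose and 1 fell at 24 h, and 2 rose at 72 h. The 2 lower at 3 h were Icoslg (-0.90 ± 0.22, limma adjusted p = 0.00681) and Cd40 (-1.03 ± 0.29, adjusted p = 0.0191). At 24 h the 1 that fell was Icoslg (-1.125 ± 0.22, adjusted p = 0.00105). Cd86, a ligand of CD28, rose by 1.04 ± 0.29 at 24 h and 1.02 ± 0.28 at 72 h. Cd83, a marker of activated antigen-presenting cells, rose by 1.71 ± 0.40 and 1.69 ± 0.38. Of 9 genes of interleukin 10 and TGF-beta signalling, which restrain class II, 2 rose at 24 h and 4 at 72 h. Il10ra, the interleukin 10 receptor, rose by 1.18 ± 0.35 and 2.26 ± 0.33, while Il10 was below the filter. Socs3, a feedback inhibitor of cytokine signals, had risen by 2.602 ± 0.28 at 1 h (adjusted p = 6.96e-08).

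Markers of several cell types also rose at 24 and 72 h, and some of them were higher before any class II probe set passed. Of 10 genes common to leukocytes, 0 passed at 1 and 3 h, and 9 rose at 24 h and 9 at 72 h, with median changes of 2.19 and 1.82. Their summed normalized intensity was 2260 to 9470 in isoproterenol hearts and 803 to 1380 in vehicle hearts at 24 h. Its range at 72 h was 1400 to 6530 in isoproterenol hearts and 879 to 940 in vehicle hearts. Ptprc, the leukocyte phosphatase CD45, rose by 2.27 ± 0.34 at 24 h and 1.79 ± 0.33 at 72 h. Of 16 macrophage markers, 8 rose at 24 h and 12 at 72 h, with median changes of 0.56 and 1.69, and their sum at 72 h was 2320 to 8420 in isoproterenol hearts and 1300 to 1920 in vehicle hearts. Cd68, a lysosomal glycoprotein of macrophages, rose by 2.74 ± 0.52 and 2.83 ± 0.49 at the 2 times, and Csf1r, the receptor for macrophage growth factor, by 1.18 ± 0.28 and 1.71 ± 0.27. C1qa, a complement subunit made by macrophages, rose by 2.36 ± 0.25 at 72 h and had a larger effect then than at 24 h (difference 2.23, limma adjusted p = 0.00108). Of 8 monocyte markers, 4 rose at 24 h and 5 at 72 h. Earlier, 1 of the 16 macrophage markers was higher at 1 h and 3 at 3 h. Among the 8 monocyte markers, 1 was higher at 1 h and 1 at 3 h. At 1 h a marker of monocytes, Vcan, had risen by 1.54 ± 0.35, and Cd14, a receptor of macrophages, by 1.29 ± 0.36, when no class II probe set had passed.

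Markers of other antigen-presenting cells passed in part. Of 7 measured dendritic cell markers, 2 rose and 1 fell at 24 h and 3 rose at 72 h, and their sum at 72 h was 448 to 702 in isoproterenol hearts and 334 to 438 in vehicle hearts. Clec10a, a lectin of dendritic cells and macrophages, rose by 0.95 ± 0.27 at 24 h and 1.80 ± 0.26 at 72 h, and Clec9a, a receptor of cross-presenting dendritic cells, by 0.98 ± 0.32 at 72 h. Flt3, a receptor of their precursors, did not pass, with 0.82 ± 0.33 at 24 h and 0.40 ± 0.32 at 72 h. Of 13 listed B cell genes, 5 were measured, and the defining Cd79b and Ms4a1 were below the filter. Of the 5, 1 was lower at 3 h, 1 rose at 24 h and 2 rose at 72 h. Blnk, a signalling adaptor of B cells, was lower at 3 h (-1.01 ± 0.30) and higher at 72 h (1.27 ± 0.29). Btk, a kinase also expressed in myeloid cells, rose by 1.05 ± 0.34 at 24 h and 1.23 ± 0.32 at 72 h. Blk and Cd22, a kinase and a receptor of B cells, did not pass at 72 h (-0.27 ± 0.35 and -0.16 ± 0.24), nor did Fcrla (0.37 ± 0.38). Of 12 T cell markers, 0 rose and 2 fell at 24 h and 1 rose at 72 h, when 9.37% of all probe sets were higher. At 24 h, 3165 of all 24292 probe sets passed, 1781 of them higher and the rest lower. Zap70, a kinase of the T cell receptor, and Cd28, a costimulatory receptor, fell by 0.84 and 0.76 at 24 h. Lck, another kinase of T cells, rose by 0.52 ± 0.16 at 72 h, and Cd3e, a chain of the T cell receptor complex, did not pass (-0.20 ± 0.34 and 0.25 ± 0.33). Of 9 fibroblast genes, 2 rose and 1 fell at 24 h and 7 rose at 72 h. Postn, a matrix protein of activated fibroblasts, rose by 3.67 ± 0.56 at 24 h and 5.23 ± 0.54 at 72 h. Neutrophil markers had risen earlier, 2 of 6 at 1 h and 4 at 3 h, against 1 at 24 h and 0 at 72 h. Of 9 endothelial markers 1 rose at 1 h, 3 fell at 3 h and 1 fell at 24 and at 72 h. Of 9 cardiomyocyte markers 1 fell at 24 h and 1 rose at 72 h. Of 3 measured erythroid genes 1 fell at 3 h, 1 at 24 h and 3 at 72 h, with a median change of -0.757 at 72 h. The part of these cell types in the class II values was not tested.

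RT1-Da and the leukocyte genes were low in the same 2 hearts. The mean log2 value of the leukocyte list was 6.88 in isoproterenol replicate 1 at 72 h, where RT1-Da was 9.90, and 8.13 to 8.57 in the other 4 hearts. In isoproterenol replicate 3 at 24 h it was 7.49, and 8.37 to 9.17 in the other 3. The vehicle hearts of all times lay between 6.26 and 6.88. Deviations of RT1-Da from group means correlated over 30 arrays with those of the endosomal list at r = 0.83, the leukocyte list at 0.787, the macrophage list at 0.701, the monocyte list at 0.55 and the T cell list at 0.475. Without the 2 farthest hearts these were 0.635, 0.572, 0.31, 0.095 and 0.29. Lists of other kinds had values of similar size to the T cell list: 0.502 for fibroblast genes, 0.479 for interleukin 10 and TGF-beta genes and -0.478 for endothelial genes, and 0.078, 0.038 and -0.063 without the 2 hearts. Without both hearts, at 72 h 12 endosomal genes rose in place of 10, 14 macrophage genes in place of 12, 12 class I genes in place of 9, and 2 neutrophil genes in place of 0. The interferon gamma and fibroblast lists had 8 in place of 7 each at 72 h, and the interleukin 10 and TGF-beta list 5 in place of 4. At 24 h 5 class I genes rose in place of 2, 2 interferon gamma genes in place of 0, 4 fibroblast genes in place of 2 and 6 monocyte genes in place of 4. The dendritic cell and the interleukin 10 and TGF-beta lists had 3 in place of 2 at 24 h, and macrophage genes 7 in place of 8. Lower calls at 72 h became 2 in place of 0 for dendritic cell genes, 2 in place of 1 for endothelial genes, and 1 in place of 0 for cardiomyocyte and for costimulation genes. At 24 h, lower calls became 2 in place of 1 for endothelial, cardiomyocyte and erythroid genes. The leukocyte, T cell, B cell and class II promoter factor lists kept their counts at both times.

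**Figure D5:**
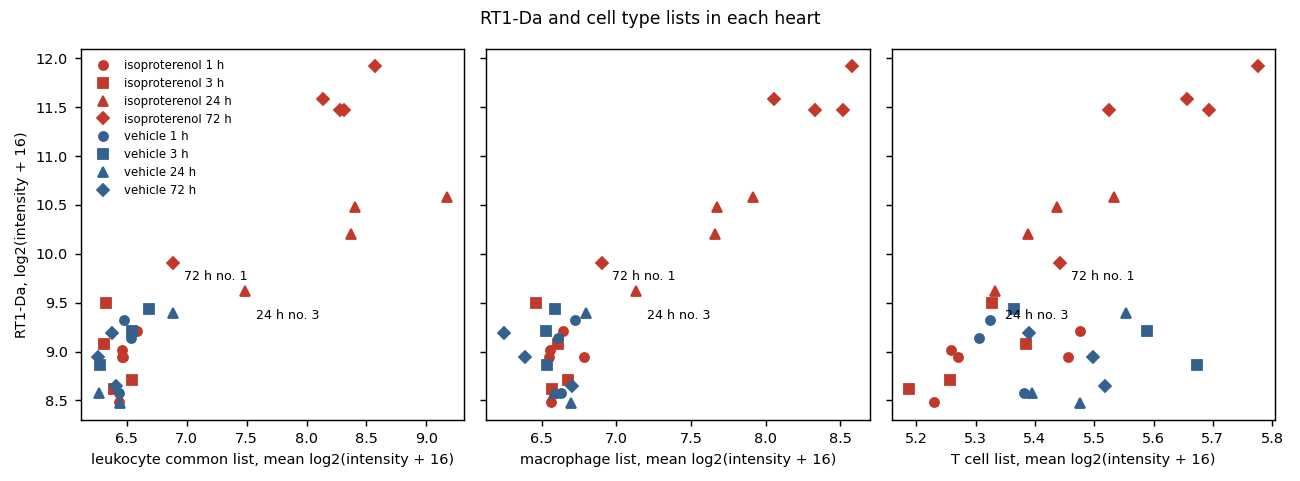
RT1-Da (vertical axis) against the mean of the leukocyte, macrophage and T cell lists (horizontal axes) in each of the 30 hearts, all on the log2(intensity + 16) scale, isoproterenol in red and vehicle in blue with a symbol for each time. The 2 labelled isoproterenol hearts lie below the other isoproterenol hearts of their time in RT1-Da and in the leukocyte, macrophage and T cell lists. In the T cell list the distance is small: 5.33 against 5.39 to 5.53 at 24 h, and 5.44 against 5.53 to 5.78 at 72 h.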

How the data were processed

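RNA of 30 rat hearts was read on 1-colour Affymetrix arrays, 1 array per sample. Per the labels' protocols, tissue was kept in RNAlater and RNA was extracted with a Qiagen kit. The table the authors deposited holds linear intensity values for 31099 probe sets, and how they were summarised and scaled is not stated in the labels. The last time is 72 h by the labels, while the design text names another. Intensities up to 15511.9 were taken as log2(intensity + 16), quantile normalized because array medians differed by 3.32-fold, and filtered: 57 controls were left out, and an intensity of 23 (the 40th percentile) had to be reached in 3 arrays. limma 3.58.1 in R 4.3.3 fitted 8 group means (22 residual degrees of freedom, intensity trend), with Benjamini-Hochberg adjustment per contrast and two-sided tests. A single gene was listed for 20826 probe sets, several for 436 and none for 9780, controls aside.

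The members and gene lists were chosen with earlier results of these data known. All member probe sets are named. From each list, up to 4 of the genes with the largest change past the threshold at a time are named, or up to 3 where none passed, together with Rfx5, Irf1, Irf8, Ctss, Ifi30, Cd86, B2m, Cd3e, Cd79b, Flt3, Csf1r, Cd68 and Ptprc. Other genes are named from the 10 most alike by deviations and by levels. A gene outside the members is represented by its brightest probe set. Lamp2, Ms4a1, Ifng, Il10, Ifngr1, Cxcl9, Cxcl11, Blk, Cd22, Fcrla, RT1-DOb, RT1-Db2 and RT1-A2 are named outside this rule and were chosen after their values were seen. Alternatives were other pseudocounts, filters, normalizations, variance estimates, array weights, a replicate block, only the arrays compared, and each array left out. With 3 to 5 arrays per group, their number limits the precision. Deviations of same-numbered replicates correlated weakly (r from -0.07 to 0.13 in 12 pairs), and the labels do not state whether the numbers pair hearts.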

Additional observations from a re-analysis of the deposited data

Results flagged for a closer look

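Each of the 14 probe sets was examined in each isoproterenol group of 4 or 5 hearts for 1 heart far from the others. Of these 56 cases, 6 had one. A chance rate of about 1 in 20 would hold for independent cases. These cases share hearts, so that rate is no yardstick for the count. Isoproterenol replicate 1 at 72 h lay far below the other 4 hearts in RT1-Da (9.90), RT1-DMa (6.49) and RT1-DMb (8.42). At 1 h, isoproterenol replicate 4 lay above the others in RT1-Ba 1381593_x_at (6.30), replicate 5 below them in RT1-Bb 1371033_at (4.80), and replicate 1 above them in Ciita 1369214_a_at (6.06).

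The effect of isoproterenol differed between times in 11 of 56 tests by limma. The tests take 14 probe sets through comparisons that share groups, so they are not separate results. Of all probe sets, 3.59% had a larger effect at 24 h than at 3 h, and 5.2% at 72 h than at 1 h. The shares were 0.391% for 3 h against 1 h and 1.32% for 72 h against 24 h. Between 24 and 3 h the difference of the log2 changes was 1.60 for RT1-Da, 4.41 for RT1-Bb 1371033_at and 1.85 for RT1-DMb. Between 72 and 1 h it was 2.43 for RT1-Da, 2.62 for RT1-Db1 1370383_s_at and 2.18 and 3.68 for RT1-Ba 1370822_at and 1377334_at. It was 0.58 for Cd74, 1.71 for RT1-DMa, 1.40 for RT1-DMb and 1.38 for Ciita 1379381_at.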

How the results depend on the processing

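Of 2408 alternative values for single class II probe sets, 0 called changes turned direction, 18 lost the call, 14 gained one, and 31 changes that passed in neither setting changed sign. The count at 24 h was 5, with 4 to 6 on leaving out each array in turn and 8 without normalization. The count at 72 h was 9, with 7 to 10 on leaving out each array and 8 to 11 otherwise. At 1 h it was 0, and 1 with only the arrays compared, RT1-Ba 1377334_at (-1.31, adjusted p = 0.0044). The count of larger effects at 24 h than at 3 h was 3, with 1 to 5 on leaving out each array. It was 1 without vehicle replicate 1 or 2 or isoproterenol replicate 3 at 3 h, or isoproterenol replicate 4 at 24 h. It was 5 with array weights or without isoproterenol replicate 3 at 24 h, 7 without the 2 hearts that stood apart (an alternative chosen after seeing the data) and 8 without normalization. The count at 72 h against 24 h was 0, with 0 to 3 on leaving out each array, 1 with a filter at the 60th percentile, and 2 with array weights or without the 2 hearts. With fewer arrays the fits are smaller; the cause of the other moves was not tested.

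RT1-Bb 1371033_at at 24 h was also lost under robust variance, without the intensity trend, without a filter or with 4 as the pseudocount (limma adjusted p 0.0583 to 0.0958), and at 72 h with robust variance (0.0558). Without normalization the median of all probe sets was 0.47 at 24 h and 0.36 at 72 h, and 99.5% and 98.8% of called probe sets were higher, against 56.3% and 52.3%. With arrays centred on medians these shares were 68.1% and 76.8%. The count over all probe sets at 1, 3, 24 and 72 h was 643, 2766, 3165 and 4354. It was 1698 at 1 h, 5251 at 24 h and 7208 at 72 h with array weights, 1313, 1331, 2104 and 2398 with only the arrays compared, 190, 478 and 2380 at 1, 3 and 72 h without normalization, and 4778 at 24 h without the 2 hearts. With the replicate number as a block, 4 class II probe sets passed at 24 h and 9 at 72 h. RT1-Bb 1371033_at was the 1 lost (change 2.46, adjusted p = 0.0614), and the block changed no other class II call. Of 12 same-numbered pairs of hearts, 7 correlated best with their own number. The labels do not state whether the numbers pair hearts, and these values do not settle it. Dim probe sets (Ciita, RT1-Ba 1392334_at and 1381593_x_at, RT1-Db1 1370382_at) lie near the floor of the array, which limits what they can show.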
